A study of Homo sapiens with 2 samples.

Results

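Readthrough transcript loci are gene entries for RNAs that begin in one gene and continue into the next gene on the same strand, so that exons of both stand in a single transcript. Of 27685 genes in the deposited gene table, 158 were described as readthrough loci, and the 109 with at least 20 counts summed over both libraries are described here. The members were thus chosen on the summed count, and that sum and the level it stands for are no finding. Of the other 49 loci, 27 had no count in either library. The RNA was taken 48 hours after transient transfection with Lipofectamine of NCI-H838, a cell line derived from a human lung adenocarcinoma. The LINC00472 culture received pCDH-LINC00472, a plasmid with the full-length long noncoding RNA LINC00472, and the control culture received the empty pCDH plasmid. With 1 library per group, none of the differences has a replicate check, and no p-value is given. All intervals cover counting error only.

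Transcription by RNA polymerase II normally ends after the nascent RNA has been cut and polyadenylated at the end of a gene. Where the polymerase passes that site and reaches a second gene, splicing can skip the end of the first gene and join one of its exons to an exon of the second. Some products encode fused proteins, while others carry a premature stop codon and are candidates for nonsense-mediated decay (NMD), the cytoplasmic pathway that removes such messages. The gene named first in the symbol is called the upstream parent here and the gene named last the downstream parent.

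A readthrough RNA shares most of its exons with its parents. In GENCODE 29, 79 loci could be set against the exons of both parents. A median of 33.8% of the exonic bases of a locus lay in upstream parent exons, 53.8% in downstream parent exons and 3.41% in neither. In 26 of the 79 loci under 1% of the bases lay in neither parent, and in 7 loci at least 30% did, up to 62.4% in BOLA2-SMG1P6. The share was 21.4% in ANKHD1-EIF4EBP3 and 21.3% in RBM14-RBM4. Reads over shared exons cannot be told apart by sequence, and how the deposited counts divide them between a locus and its parents is not given in the sources used here. Every count and ratio of a locus below is uncertain in that way.

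The splice junction between the parents is a stretch that the separate parent RNAs do not hold. For the loci that the results turn on, 1 junction each is shown as 30 bases in transcript direction. The last bases of the upstream exon are in lower case and the first bases of the downstream exon in capitals. The sequences come from GENCODE 29 transcripts, and the coordinates give the last and first base of the joined exons on GRCh38, which is not the hg19 build of the deposited files. The first 4 loci were higher in the LINC00472 library and the next 5 were lower.
MSH5-SAPCD1: cctcctgagactccgCTACGCAGGATGCAG (chr6:31762570-31763415, + strand)
RBM14-RBM4: gtgacgtggtgaaagGCAAACGAATGCACG (chr11:66617057-66643450, + strand)
CORO7-PAM16: gacgaggacgagtggCCAGCCGGGCCGCAG (chr16:4341504-4355286, - strand)
BLOC1S5-TXNDC5: caggaacgaaaaaagGTGTGGACACTGCCA (chr6:7904723-8026367, - strand)
C15orf38-AP3S2: gaggacgaggagtggCCAGAAGAAATTCAA (chr15:89889140-89903216, - strand)
SYS1-DBNDD2: caacgccctcacctgGAGCTGACATGGACC (chr20:45365686-45408460, + strand)
TMEM189-UBE2V1: tctgcatcaccacagGAGTAAAAGTCCCTC (chr20:50096820-50127975, - strand)
ANKHD1-EIF4EBP3: ctctcctaaccagagGCACCAGGATCATCT (chr5:140542281-140548906, + strand)
SPECC1L-ADORA2A: gctgccccacagcgtGTGCCTCAGGAACCC (chr22:24414744-24433131, + strand)

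Each of these 9 sequences was found under 1 gene name among all GENCODE 29 transcripts. A junction of that kind was found for 71 of the 109 loci. The junction of the duplicated loci SLX1A-SULT1A3 and SLX1B-SULT1A4 on chromosome 16 was the same in both copies and is shown because it cannot tell them apart.
SLX1A-SULT1A3: tcagaattagaagagGAACATGGAGCTGAT (chr16:30197357-30200725, + strand)
SLX1B-SULT1A4: tcagaattagaagagGAACATGGAGCTGAT (chr16:29458015-29461382, + strand)
Over the 72 junctions that were extracted, 1 per locus, the intron that is removed between the parents had a median of 14254 bases. It ranged between 486 bases in TMEM110-MUSTN1 and 132570 bases in TSNAX-DISC1. Other transcripts of a locus need not hold its junction. That of TMEM110-MUSTN1 stood in 1 of 3 GENCODE transcripts of the locus and that of RBM14-RBM4 in 1 of 4. The ANKHD1-EIF4EBP3 junction stood in 3 of 3.

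The LINC00472 library held 21093055 gene counts and the control library 54823706. LINC00472 itself had 5655 counts (25.3 FPKM, a level corrected for transcript length and library size) in the LINC00472 library, against 2563 counts (4.74 FPKM) in the control, a 4.69-fold difference in counts scaled with TMM factors. All 5 epithelial markers reached the expression minimum given below and 3 were lower, among them KRT8 with 1153 against 9714 counts. Of 4 lung lineage markers, NKX2-1 and SFTPB had no count in either library, and NAPSA was higher with 88 against 66 counts. Of the leukocyte markers, CD14 was higher with 299 against 256 counts, while CD3E had none in either library and PTPRC 0 against 32. Of 3 endothelial markers, PECAM1 and CDH5 had no count in the LINC00472 library and VWF had 35 against 48 counts. Of 3 fibroblast markers, DCN had 0 against 28 counts, COL1A1 237 against 458 and COL1A2, which was lower, 15 against 68. The part of other cell types in the ratios below was not tested.

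More readthrough loci were higher than lower in the LINC00472 library, and the median ratio was above 0 for the loci and below 0 for their parents. With upper quartile factors the parents' medians were near 0 (-0.022 upstream and 0.036 downstream), the loci's was 1.24 and that of all genes 0.21. With total-count scaling they were -0.12, -0.063, 1.14 and 0.11. The call of a gene as higher or lower needed a mean of at least 1 CPM (the TMM-scaled count relative to library size), a difference of 2-fold or more and a 95% counting interval on 1 side of equality. Of the 109 loci, 85 reached the minimum. Of these 85, 38 were higher, against 16.3% of all 14012 genes at the minimum, and 15 were lower, against 23.8% of all genes. The higher loci make 44.7% of the 85 and the lower ones 17.6%. All genes were not matched to the loci for expression level. With the minimum raised to 5 CPM, 21 of 46 loci were higher and 6 lower, while 1347 of all genes were higher and 3052 lower. How many of all genes reached 5 CPM is not given here, so no share of all genes stands beside that of the loci. The part of expression level in these shares was not tested. The median log2 ratio of LINC00472 over control was 0.80 (quartiles -0.59 and 1.64) over the loci, and -0.19 over all genes (-0.96 and 0.60). It was -0.51 over 73 upstream parents and -0.35 over 61 downstream parents at the minimum. Over the 54 loci at the minimum whose junction was found under 1 gene name, the median was 0.24, with 22 higher and 12 lower. A readthrough locus that reached the minimum through 1 library had to differ. Of the 85, 65 had at least 1 CPM in both libraries, 11 in the LINC00472 library alone and 9 in the control alone.

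**Figure D1:**
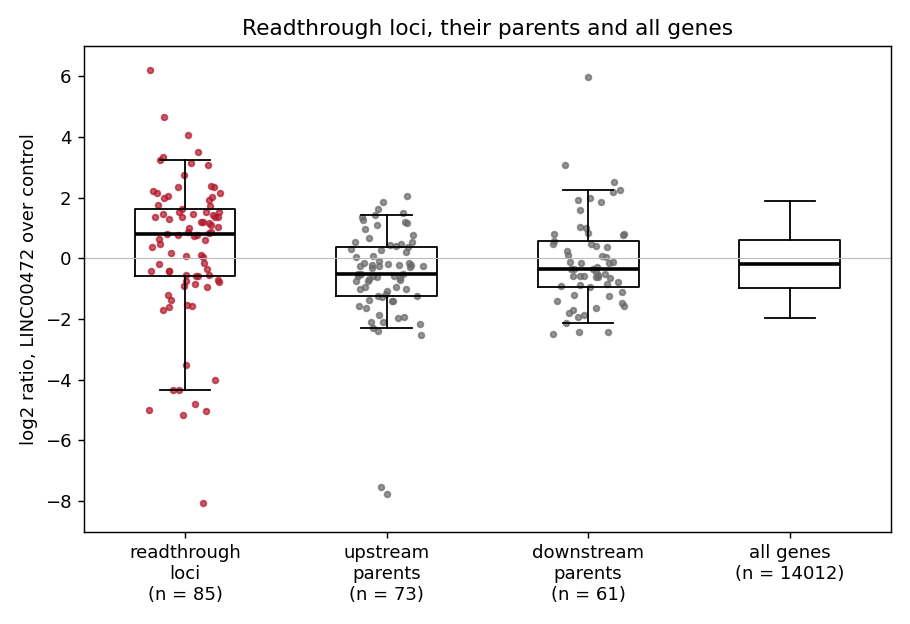
Log2 ratio of LINC00472 over control (TMM-scaled counts, y axis) of readthrough loci, their upstream and downstream parents and all genes at the expression minimum. Boxes show quartiles and the median, whiskers the 5th and 95th percentiles and points single genes, with loci at 0 in 1 library drawn at their bound and the 2 upstream parents at 0 in the LINC00472 library at their fitted value. The median lies at 0.80 for the loci, -0.51 for upstream parents, -0.35 for downstream parents and -0.19 for all genes.

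**Figure D2:**
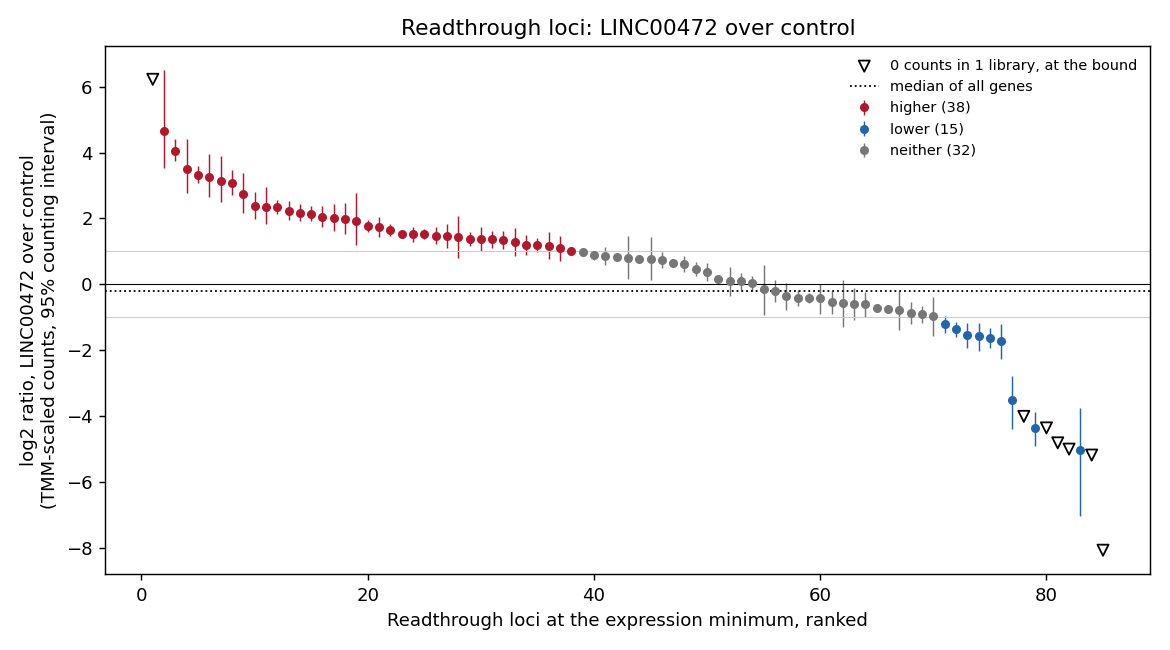
The 85 readthrough loci at the expression minimum, ranked by log2 ratio of LINC00472 over control (y axis), with 95% counting intervals. Open triangles mark loci with 0 counts in 1 library, drawn at their bound. The 38 higher loci fall off gradually, whereas the 9 loci at the lower end stand apart from the rest, 6 of them without a count in the LINC00472 library.

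The sizes of the differences were unlike on the 2 sides. Over the 38 higher loci the median fold was 3.61 and 17 were at least 4-fold higher. Of the 15 lower loci, 9 were at least 4-fold lower, and 6 of the 15 had no count in the LINC00472 library. All 109 loci together took 25093 counts or 0.119% of the LINC00472 library (exact 95% interval 0.117 to 0.120), against 39518 counts or 0.0721% of the control (0.0714 to 0.0728).

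Among the higher loci, MSH5-SAPCD1 joins MSH5, a MutS homologue of meiotic recombination, to SAPCD1. It had 645 counts (6.76 FPKM) in the LINC00472 library, against 82 counts (0.353 FPKM) in the control, a 16.6-fold difference (log2 4.05, interval 3.73 to 4.41). Its upstream parent MSH5 was also higher, with 776 against 606 counts (log2 1.45), and SAPCD1 had 24 against 0 counts. Both parents and the locus therefore lay on the higher side, and the locus rose 6.11-fold relative to MSH5.

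RBM14-RBM4 joins 2 RNA-binding proteins, the paraspeckle component and coactivator RBM14 and the splicing regulator RBM4. It had 720 counts (19.4 FPKM) in the LINC00472 library, against 152 counts (2.13 FPKM) in the control (log2 3.33, interval 3.08 to 3.60). RBM14 had 2317 against 3718 counts (log2 0.41) and RBM4 had 4252 against 6961 counts (log2 0.38), and neither met the rule. The locus held 9.88% of the counts of the trio in the LINC00472 library, against 1.40% in the control. The intervals of these shares, 9.20 to 10.6% and 1.19 to 1.64%, lay far apart.

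CORO7-PAM16 joins the coronin CORO7, which acts in Golgi trafficking, to PAM16, a subunit of the mitochondrial protein import motor. It had 105 counts (1.21 FPKM) in the LINC00472 library, against 0 counts in the control, at least 74.5-fold higher against a floor of 3 counts per library. CORO7 had 258 against 625 counts (log2 -0.19), and PAM16 was lower with 52 against 593 counts (log2 -2.41). The locus and its downstream parent therefore lay on opposite sides.

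BLOC1S5-TXNDC5, which joins a subunit of the lysosome-related organelle complex BLOC-1 to a thioredoxin-family protein of the endoplasmic reticulum, had 88 against 16 counts (1.11 against 0.0793 FPKM). Its log2 ratio was 3.49 (2.77 to 4.42), while BLOC1S5 (-0.51) and TXNDC5 (-0.96) had ratios below 0 and met no call. SETDB2-PHF11, with a histone methyltransferase gene upstream, had 97 against 23 counts (log2 3.13), and its parents had log2 ratios of 0.22 and 0.47. TMEM56-RWDD3 had 618 against 259 counts (17.6 against 3.05 FPKM, log2 2.34), with TMEM56 at -0.53 and RWDD3 at 0.82.

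LINC00680-GUSBP4 had 67 against 5 counts (log2 4.66, interval 3.54 to 6.50), next to 666 against 169 counts of its downstream parent GUSBP4 (log2 3.06), a pseudogene of a multi-copy family. STX16-NPEPL1, headed by a syntaxin of the trans-Golgi network, had 102 against 32 counts (log2 2.74). Its upstream parent STX16 was higher as well, with 10588 against 5409 counts (log2 2.06), and the ratio of the locus to STX16 was 1.61-fold higher, which met no call. SEPT5-GP1BB had 114 against 25 counts (log2 3.24), whereas the septin gene SEPT5 had 0 against 147 counts and GP1BB none in either library. At this last locus all counts of the trio in the LINC00472 library were assigned to the readthrough entry.

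On the lower side, C15orf38-AP3S2 had the largest bound. It joins ARPIN (C15orf38), an inhibitor of the Arp2/3 complex, to AP3S2, a subunit of the vesicle adaptor AP-3. It had 0 counts in the LINC00472 library, against 1698 counts (4.77 FPKM) in the control, at least 266-fold lower. At the level of the control, 798 counts would stand in the LINC00472 library. ARPIN had 916 against 3040 counts (log2 -0.64) and AP3S2 had 1907 against 3876 counts (log2 0.07), and neither met the rule. The locus held 0 of 2823 trio counts in the LINC00472 library, which allows a share of up to 0.106%, against 19.7% in the control.

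ANKHD1-EIF4EBP3, which ends in a gene for an inhibitor of the cap-binding factor eIF4E, had 34 counts (0.173 FPKM) in the LINC00472 library, against 1478 counts (3.11 FPKM) in the control (log2 -4.34, interval -4.89 to -3.86). Its upstream parent ANKHD1 went the other way with 2944 against 2597 counts (log2 1.27), and EIF4EBP3 had 0 against 3 counts. The trio as a whole had a log2 ratio of 0.64. The locus thus held 1.14% of the trio counts in the LINC00472 library, against 36.2% in the control.

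SPECC1L-ADORA2A, which reaches the adenosine receptor gene ADORA2A, had 4 against 296 counts (log2 -5.01, interval -7.01 to -3.75), with SPECC1L at -0.59 and ADORA2A at 0.58. C8orf44-SGK3, which reaches the gene of the kinase SGK3, had 15 against 368 counts (log2 -3.50), while C8orf44 was higher (log2 1.86) and SGK3 had -0.44. These loci lay below both parents. SERF2-C15ORF63, which ends in the chaperone-like HYPK (C15orf63), had 102 against 667 counts (log2 -1.62) and moved with its upstream parent SERF2, which had 1146 against 9471 counts (log2 -1.96). SLMO2-ATP5E, which ends in the epsilon subunit of ATP synthase, had 146 against 717 counts (log2 -1.20), beside PRELID3B (SLMO2) at -1.22 and ATP5E at -1.93. With total-count scaling (log2 -0.92), upper quartile factors (-0.82) and FPKM (-0.99) SLMO2-ATP5E fell short of 2-fold.

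Readthrough loci were at 0 in 1 library more often than all genes with at least 20 summed counts. These genes were not matched to the loci for count level. The loci had a median of 262 summed counts, and 31 of them had fewer than 100. The part of low counts in the difference was not tested. Of the 109 loci, 15 (13.8%) had no count in 1 library and at least 20 in the other, against 1.23% of the 15789 genes with at least 20 summed counts. Of 182 parents with at least 20 summed counts, 4 were in that state. The floor of 20 counts let loci in through 1 library: 78 had at least 20 counts in both, 7 in the LINC00472 library alone, 21 in the control alone and 3 in neither. Of the 15 loci, 13 lacked counts in LINC00472 cells and 2 in control cells. The split over all genes ran the same way, with 163 at 0 in the shallower LINC00472 library and 31 in the control. In 14 of the 15, both parents had counts in both libraries.

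Apart from C15orf38-AP3S2, the loci at 0 in the LINC00472 library were NT5C1B-RDH14 with 230 counts in the control, SYS1-DBNDD2 with 203, TMEM189-UBE2V1 with 178, RAB4B-EGLN2 with 130 and RPS10-NUDT3 with 102. Their folds were at least 36.0, 31.8, 27.9, 20.4 and 16.0 lower in the same order. Below the minimum stood DNAJC25-GNG10 and ABHD14A-ACY1 with 54 counts each in the control, MINOS1-NBL1 with 48, WRB-SH3BGR with 43, SYNJ2BP-COX16 with 33, and FAM47E-STBD1 and URGCP-MRPS24 with 26 each. At the level of the control, the 13 loci would have had between 12.2 and 798 counts in the LINC00472 library. ZNF765-ZNF761, which joins a pair of zinc finger genes, was at 0 in the control and had 43 counts in the LINC00472 library, at least 30.5-fold higher.

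The parents of these loci were well counted. TMEM189-UBE2V1 joins the plasmanylethanolamine desaturase gene TMEM189 to UBE2V1, a ubiquitin-conjugating enzyme variant, which had 754 against 3614 counts and 3452 against 5542 counts. RAB4B-EGLN2 joins a RAB GTPase gene to a prolyl hydroxylase of hypoxia-inducible factors, and RAB4B had 60 against 147 counts and EGLN2 730 against 4307. RPS10, a ribosomal protein gene and the upstream parent of RPS10-NUDT3, had 3153 against 30313 counts. NT5C1B-RDH14 stood apart from the rest because its upstream parent NT5C1B had no count in either library. Over the 15 trios the median log2 ratio of the summed counts of locus and parents was -0.80.

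**Figure D3:**
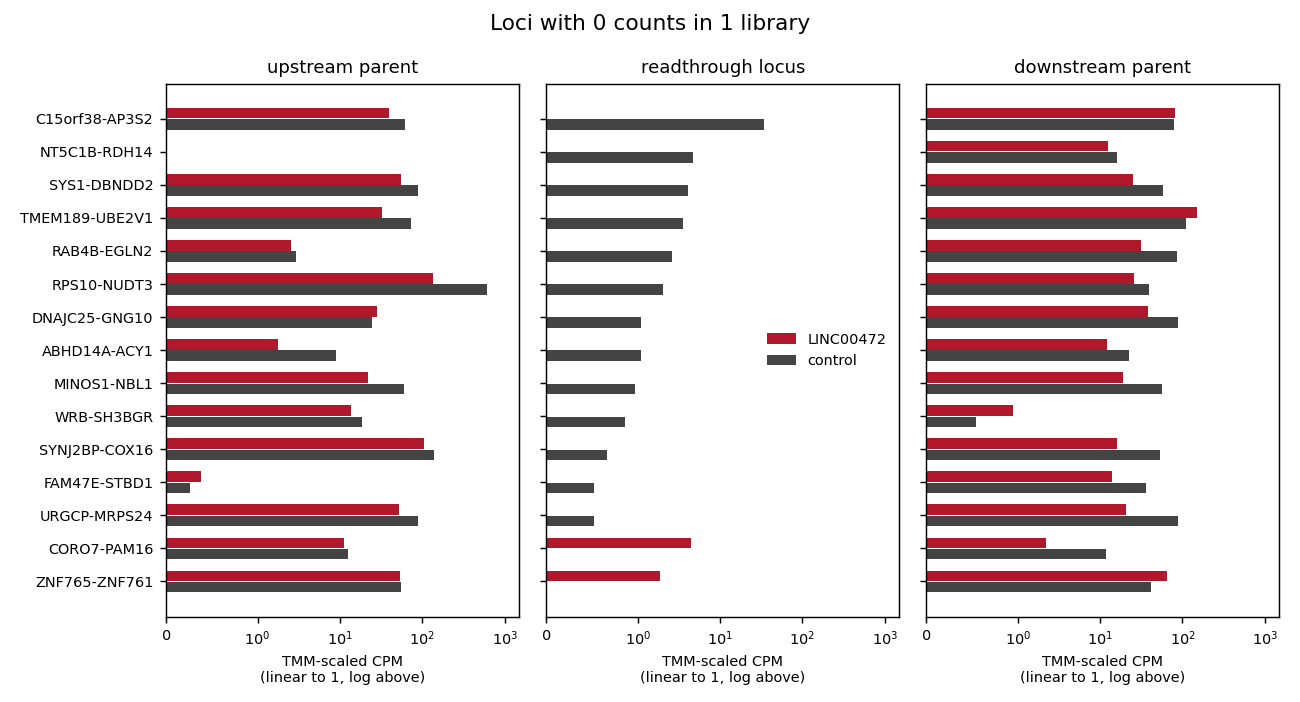
TMM-scaled CPM (x axis, linear up to 1 and logarithmic above) of the 15 readthrough loci with 0 counts in 1 library and of their parents. Bars show the LINC00472 library above the control library. The readthrough panel holds 1 bar per locus, while the parents have a bar in both libraries at each locus other than NT5C1B-RDH14, whose upstream parent had no count.

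Set against their parents within each library, the loci rose more often than they fell. The change in the ratio of locus counts to parent counts does not depend on the scaling between libraries. A ratio was called where it changed at least 2-fold and its exact 95% counting interval excluded no change, with locus and parent both at the minimum. Relative to the upstream parent, 40 of 74 loci were higher and 12 lower, with a median log2 change of 1.27 (quartiles -0.10 and 2.21). Relative to the downstream parent, 28 of 61 were higher and 16 were lower, with a median of 0.71 (-1.03 and 1.997). Among loci with a junction under 1 gene name, 16 were higher and 12 lower against the downstream parent, and 27 and 9 against the upstream parent. No other pairs of genes were compared in this way, and loci were not matched to their parents for gene type or level. The part of both in these counts was not tested.

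Of 56 loci at the minimum with both parents at the minimum, 26 had an interval above those of both parents, 10 below both and 20 between or overlapping. Of the 26, 23 were themselves called higher, and 8 of the 10 were called lower. Across these 56 trios Spearman's correlation of the log2 ratio was 0.37 between locus and upstream parent, 0.17 between locus and downstream parent and 0.19 between the parents. These values describe trios that share exons and libraries and are not independent replicates. The median absolute difference in log2 ratio was 1.58 between locus and upstream parent, 1.67 between locus and downstream parent and 1.07 between the parents.

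**Figure D4:**
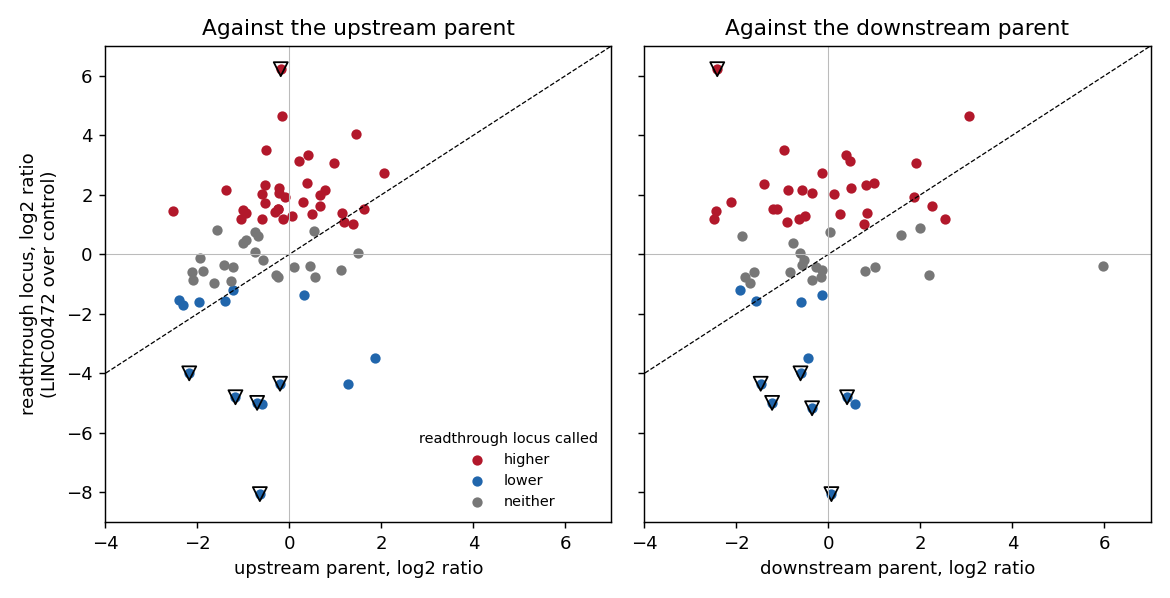
Log2 ratio of LINC00472 over control of each readthrough locus (y axis) against that of its upstream parent (left, x axis) and downstream parent (right, x axis), for pairs at the expression minimum. Points are coloured by the call of the locus, triangles mark loci at 0 in 1 library drawn at their bound, and the dashed line marks equal ratios. The 2 pairs whose upstream parent had 0 counts in the LINC00472 library are not drawn. Most higher loci lie above the line in both panels.

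NME1-NME2 showed the widest gap on the higher side after CORO7-PAM16. It joins neighbouring genes of nucleoside diphosphate kinases and had 148 against 114 counts (5.38 against 1.79 FPKM, log2 1.46). NME1 had 676 against 8300 counts (log2 -2.53) and NME2 had 1863 against 21508 counts (log2 -2.44). The locus rose 15.9-fold relative to NME1 and 14.97-fold relative to NME2, which are near-identical in part of their sequence and can share reads. RPL17-C18orf32, headed by a ribosomal protein gene, had 383 against 181 counts (log2 2.17), while RPL17 had 5918 against 32464 counts (log2 -1.37) and C18orf32 255 against 807 counts (log2 -0.57).

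RPL36A-HNRNPH2, which runs between a ribosomal protein gene and a gene for an RNA-binding protein, had 56 against 356 counts (log2 -1.57), close to RPL36A (-1.40) and HNRNPH2 (-1.57). HSPE1-MOB4, headed by the mitochondrial chaperonin gene HSPE1, had 79 against 253 counts (log2 -0.59). HSPE1 was at -2.11 and MOB4 at -0.84, so that the locus was 2.87-fold higher relative to HSPE1 without being higher itself. RPS10-NUDT3 had no count in the LINC00472 library, as given above.

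Shares of the trio show the same comparison in percent of counts, which are not corrected for length. Pooled over 100 trios with both parents matched, readthrough loci held 18475 of 184558 counts or 10.0% in the LINC00472 library (exact 95% interval 9.87 to 10.1). In the control they held 30932 of 603547 or 5.13% (5.07 to 5.18). A share also rises where the parents fall, and parents with many counts weigh heavily in the pooled value. Among these were EIF4A1 with 6478 against 55657 counts and RPL17 with 5918 against 32464. Of 73 upstream parents at the minimum, 23 were lower and 10 higher, and of 61 downstream parents 15 were lower and 10 higher. Over all genes 23.8% were lower and 16.3% higher, and the downstream parents stood near these shares. The pooled share without the most abundant parents was not tested. The median share of a locus was 7.25% in the LINC00472 library, against 4.36% in the control. The share was higher in the LINC00472 library in 70 trios and lower in 30, and the intervals were apart in 56 and 20 of them. ARMCX5-GPRASP2 held 51.5% of its trio in the LINC00472 library, against 17.97% in the control. Its parent ARMCX5 met no call (log2 -0.25), GPRASP2 was lower (-1.21), and the trio as a whole had nearly equal counts after scaling.

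**Figure D5:**
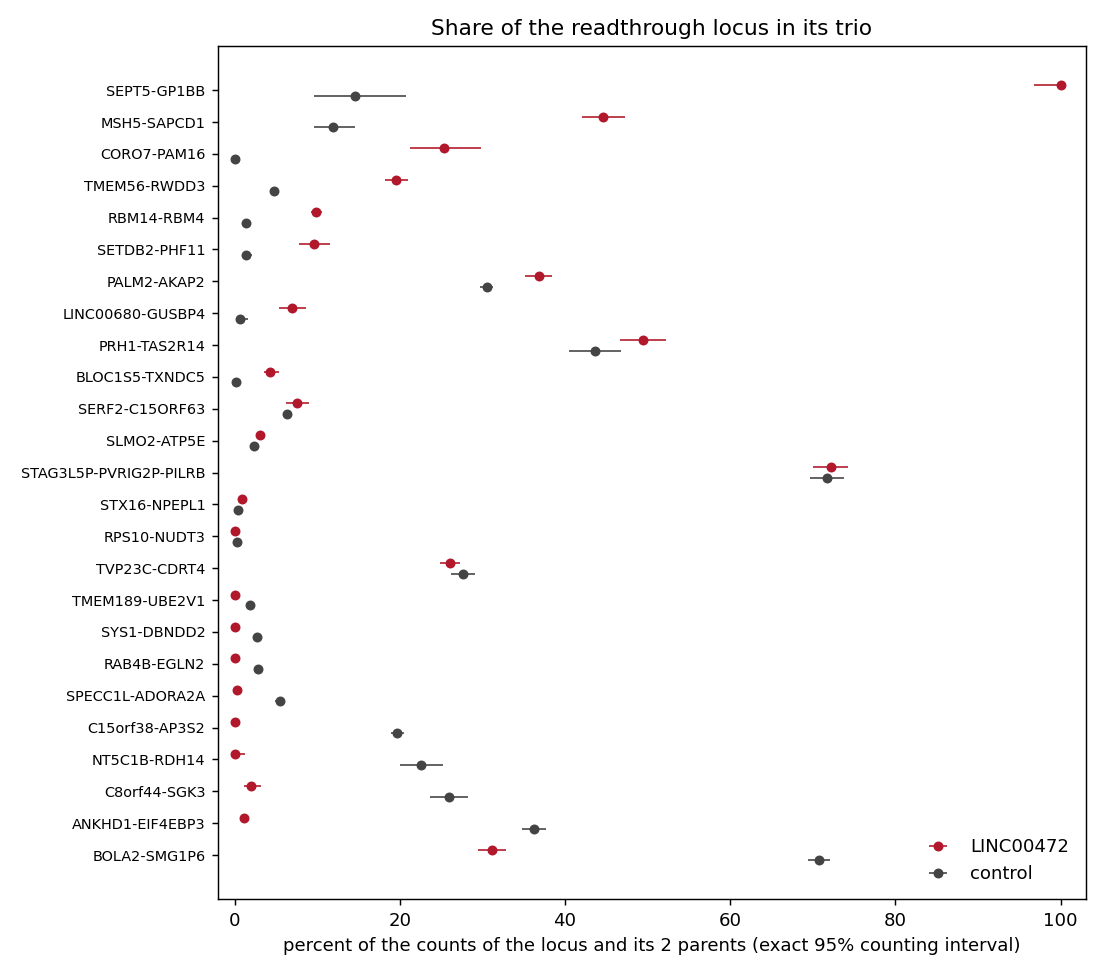
Share of the readthrough locus in the counts of locus and parents (x axis, percent, exact 95% counting intervals) in both libraries (LINC00472 in red, control in grey), for the loci named as furthest higher or lower or as most abundant that are described in the text and have both parents matched. Loci are ordered by the difference between the libraries. SEPT5-GP1BB and MSH5-SAPCD1 lie at the top, where the LINC00472 share is higher, and ANKHD1-EIF4EBP3 and BOLA2-SMG1P6 at the bottom, where it is lower.

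The most abundant readthrough loci per length had ratios in both directions. BOLA2-SMG1P6, in a segmental duplication that makes its counts uncertain also for that reason, had 19.8 FPKM in the LINC00472 library, against 28.5 FPKM in the control (log2 -0.71). Its downstream parent SMG1P6, a pseudogene, was higher with 1777 against 827 counts (log2 2.19), and the locus held 31.2% of its trio, against 70.8% in the control. TVP23C-CDRT4 had 19.5 against 6.15 FPKM (log2 1.52) and moved with its Golgi parent TVP23C (log2 1.63). STAG3L5P-PVRIG2P-PILRB had 16.5 against 6.99 FPKM (log2 1.03) and held 72.2% of its trio in LINC00472 cells, against 71.7% in control cells.

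PRH1-TAS2R14, which ends in a bitter taste receptor gene, had 15.6 against 4.40 FPKM (log2 1.64), beside TAS2R14 at a log2 ratio of 2.26. PALM2-AKAP2 had the most counts of the 109 loci, 1243 in the LINC00472 library, against 4475 in the control (log2 -0.76). Its parents went opposite ways, with PALM2, a membrane-associated paralemmin, at 946 against 1372 counts (log2 0.55) and AKAP2, an anchoring protein of protein kinase A, at 1186 against 8824 counts (log2 -1.81). The SLX1 pair with the shared junction rose relative to both parents in each copy. SLX1A-SULT1A3 had 384 against 359 counts (log2 1.19) and SLX1B-SULT1A4 had 228 against 316 counts (log2 0.62).

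Loci described as NMD candidates and the other loci had ratios in both directions. Of 23 NMD candidates, 17 reached the minimum, and 9 of these were called higher, with 3 lower (median 1.19 on the log2 scale). Of 82 loci described neither as NMD candidates nor as transcribed pseudogenes, 64 reached the minimum, and 28 were higher and 12 lower (median 0.79). The 4 loci described as transcribed pseudogenes all reached the minimum, with 1 higher and 0 lower (median 0.51). The difference between these classes was not tested. All 23 NMD candidates were of the noncoding RefSeq type, so this comparison was not separated from gene type. By RefSeq gene type, 30 noncoding loci at the minimum had a median of 1.18 (17 higher, 5 lower), 45 protein-coding loci 0.38 (19 higher, 10 lower) and 10 transcribed pseudogene loci 0.85 (2 higher, 0 lower). Medians over all genes were 1.05 for noncoding genes, -0.32 for protein-coding genes and 1.06 for pseudogenes of every RefSeq type, not the transcribed ones alone. Over all genes, the calls were 515 up and 53 down among 1010 noncoding genes, 1384 up and 3238 down among 12320 coding genes, and 214 up and 31 down among 400 pseudogenes. By median, the noncoding loci therefore lay near all noncoding genes, and the protein-coding loci above all protein-coding genes. The calls were less alike. A larger share of noncoding loci was lower, 5 of 30 against 53 of 1010 noncoding genes. A smaller share of pseudogene loci was higher, 2 of 10 against 214 of 400 pseudogenes. The sets of all genes include the loci themselves.

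Some parents had no count although their readthrough locus did. The upstream parent had no count in either library at 3 loci, and the downstream parent had none at 6. PPAN-P2RY11, which joins the ribosome biogenesis gene PPAN to a purinergic receptor gene, had 152 against 603 counts while P2RY11 had none in either library. JMJD7-PLA2G4B met no call, while its downstream parent was higher. Of the exonic bases of this locus 42.7% lay in PLA2G4B exons, so shared reads may stand under either entry. The locus had 186 against 523 counts (log2 -0.40), whereas PLA2G4B, a cytosolic phospholipase A2 gene, had 227 against 7 counts (log2 5.98).

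Genes of the machinery that ends transcripts and of the pathway that removes faulty ones had members in both directions. Of 25 cleavage, polyadenylation and termination factors, 5 were lower and 2 higher, beside 23.8% and 16.3% of all genes, so neither share exceeded the background. Their median was -0.26 on the log2 scale, against -0.19 over all genes. The lower ones included the phosphatase SSU72 (545 against 3937 counts, log2 -1.76), the cleavage stimulation factor subunit CSTF2 (424 against 2814, log2 -1.64) and the kinase CLP1 (227 against 1279, log2 -1.40). CPSF6, a subunit of cleavage factor I, was higher with 9768 against 7700 counts (log2 1.43), as was SCAF4 (1.21), and XRN2, the exonuclease that follows cleavage, had a log2 ratio of -0.59. Of 18 NMD factors, 2 were higher and 4 lower (median 0.04), beside the same shares of all genes. Of the exon junction proteins in that list, RBM8A (log2 -1.72), EIF4A3 (-1.56) and MAGOH (-1.29) were lower, while CASC3 (-0.0013) and MAGOHB (0.46) met no call. SMG8 was lower too (-1.40), and SMG1 was among the higher ones (1.12). The part of these genes in the ratios of the readthrough loci was not tested.

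The floor that chose the loci cuts through low counts. The loci just inside it were FKBP1A-SDCBP2 with 13 against 12 counts, ST20-MTHFS with 14 against 11 and FAM47E-STBD1 with 0 against 26. Just outside it lay LY75-CD302 with 0 against 17 counts, RFLNA with 2 against 15 and TMEM256-PLSCR3 with 7 against 10. Over the 24 loci below 1 CPM, 12 had a ratio above 0 and 12 below it, and the median log2 ratio was -0.16.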

How the data were processed

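RNA-seq libraries were made from 1 LINC00472 and 1 control culture of NCI-H838 cells, grouped by their titles. The authors deposited raw whole-number counts for each gene and FPKM values (fragments per kilobase, corrected for library size), once for both libraries together and once for each. Counts of all genes were identical between these tables. Per the submitters' processing notes, the build was hg19 and the tools were StringTie 1.3.4b, HISAT2 2.1.0, bcl2fastq 2.20.0 and Trimmomatic, with no roles stated. How reads were counted, whether by strand, and what was done with reads matching several genes is not given in the sources used here.

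TMM factors from edgeR 4.0.16 in R 4.3.3 scaled the deposited counts (LINC00472 1.11, control 0.905). A prior count of 0.5, in proportion to library size, entered the log2 ratio, and its interval was the exact conditional 95% interval of the ratio of 2 counts. Ratios of locus to parent used 0.5 added to each count and the exact conditional interval of the odds ratio. Shares have exact Clopper-Pearson intervals. Where a library had 0 counts, the fold is a bound against 3 counts in that library. Intervals and bounds cover counting error only, and the shallower LINC00472 library gives the wider intervals.

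Parents were read from the symbol, or from the description where the symbol had no hyphen, taking the first and last name. Symbols and older names were matched through RefSeq (GRCh38.p14), which gave both parents for 100 loci, 1 parent for 4 and none for 5. Exons and junctions came from GENCODE 29 (GRCh38) through gene IDs, which matched 86 loci. Junctions on chromosome 8 are not shown. The members and lists were chosen with earlier results of these data known. By rule, the text names up to 10 higher and 10 lower loci, ordered by the end of the interval closest to equality, those at 0 in 1 library, the 8 most abundant by FPKM, the 8 furthest outside both parents and those next to the floor. ARMCX5-GPRASP2, RPL17-C18orf32, RPL36A-HNRNPH2, HSPE1-MOB4, the SLX1 pair, PPAN-P2RY11, JMJD7-PLA2G4B, TMEM110-MUSTN1, TSNAX-DISC1, XRN2, SCAF4, CASC3, MAGOHB and SMG1 were named after their values were seen. A few items covered by this rule are not reported here. Code was tested on simulated data. Other software was DESeq2 1.42.0 for alternative size factors, scipy 1.17.1, numpy 2.4.6 and pandas 2.3.3 under Python 3.11.15, with matplotlib 3.10.9 for plots. Alternatives were other scalings, expression minimums, prior counts and floors, FPKM in place of counts, and leaving out the locus with the most counts; the subset with a junction under 1 gene name was added after seeing the data.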

Additional observations from a re-analysis of the deposited data

How the results depend on the processing

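Scaling moved the medians and the balance of calls over all genes, which was 2288 higher and 3341 lower with TMM. With total-count scaling the median log2 ratio was 1.14 over loci, -0.12 over upstream parents and 0.11 over all genes, and with upper quartile factors 1.24 over loci, -0.022 over upstream parents, 0.036 over downstream parents and 0.21 over all genes, where 3531 genes were higher and 1993 lower. Total counts gave 3155 and 2297. The split of calls among loci was 38 higher and 15 lower with TMM, 48 and 13 with total counts, and 50 and 12 with upper quartile factors. At a minimum of 5 CPM, 21 of 46 loci were higher, 6 were lower and 17 lay outside both parents. Of all genes, 1347 were higher and 3052 lower at that minimum, and the number of genes that reached it is not given here. Without a minimum, 23 loci were lower and 3657 of all genes higher. With FPKM the upstream parent median was -0.13, 9 loci were lower against their downstream parent, and the pooled share was 7.63% in LINC00472 cells and 2.66% in control cells. That share was 12.3% and 6.72% at a floor of 100 counts, and 9.51% and 4.49% without PALM2-AKAP2. Over loci with a junction under 1 gene name, an alternative chosen after seeing the data, 22 were higher (median log2 ratio 0.24) and 16 were higher and 12 lower against the downstream parent. The fewer loci at higher minimums and in this subset lower such counts by construction, and the cause of the other changes was not tested. The other 77 recomputed values of these results stayed within 1.5 times for counts, or within the median half-width of a counting interval (0.31) for medians. RPS10-NUDT3 fell below the minimum with total counts and upper quartile factors. Higher loci named by rule that fell below a minimum of 5 CPM were CORO7-PAM16, LINC00680-GUSBP4, BLOC1S5-TXNDC5, SEPT5-GP1BB, SETDB2-PHF11, STX16-NPEPL1 and NME1-NME2. Lower loci that did so were NT5C1B-RDH14, SYS1-DBNDD2, TMEM189-UBE2V1, RAB4B-EGLN2, SPECC1L-ADORA2A, RPS10-NUDT3 and C8orf44-SGK3. These loci had no call at that minimum. No named locus that met the rule changed direction under these alternatives. No paired analysis was possible because each group held 1 library. Fewer than 100 summed counts stood behind 31 loci, which limits their ratios to wide intervals.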
